A study of Mus musculus with 4 samples.

Results

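Foxo1 binding was examined around 5 genes linked to cell division or to the resting state: Ccnd3, Cdkn1b, Ccng2, Rbl2 and Mxd4. A peak was assigned to a gene when its summit, the position of highest signal, lay in a fixed window of the mouse genome (build mm9). The windows were chromosome 17 from 47592000 to 47789000 for Ccnd3, chromosome 6 from 134820000 to 134926000 for Cdkn1b, chromosome 5 from 93646000 to 93755000 for Ccng2, chromosome 8 from 93543000 to 93698000 for Rbl2 and chromosome 5 from 34463000 to 34580000 for Mxd4. Together they hold 12 of the 2507 antibody peaks and 5 of the 723 biotin peaks of the series. The genes were picked with these peak lists in view, so the presence of peaks in the windows is not a finding.

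The series maps Foxo1 in CD4+ T cells by ChIP-seq, in which chromatin bound by a protein is isolated and its DNA sequenced. In the antibody ChIP, the endogenous protein of C57BL/6 mice was isolated with an antibody against Foxo1. The biotin ChIP used Foxo1tag/tagbirA mice, also labelled C57BL/6. They carry a tagged Foxo1 and the ligase BirA, which puts biotin on the tag, and chromatin was isolated on streptavidin, which binds biotin. An input library belongs to each ChIP. Neither the promoter that drives BirA nor the age or number of mice is stated in the labels. Each group was 1 library, so no value below carries a replicate error. Read counts were not part of the peak lists, so the depth behind each value is unknown. The labelled cell type could not be checked, since peak lists hold no expression of marker genes.

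Foxo1 is a forkhead transcription factor that is nuclear in resting T cells and leaves the nucleus when PI3K and Akt signalling phosphorylates it after antigen or growth factor stimulation. While nuclear, FoxO factors are known to favour quiescence, in part by acting on cell cycle genes. Ccnd3 encodes cyclin D3, which with its kinase partners phosphorylates retinoblastoma family proteins and lets lymphocytes enter the cycle. Cdkn1b encodes p27Kip1, an inhibitor of cyclin-dependent kinases, and Rbl2 encodes p130, the pocket protein that represses E2F target genes in resting cells. Ccng2 encodes cyclin G2, an unusual cyclin linked to growth arrest, and Mxd4 encodes a MAX partner that competes with MYC for MAX and represses transcription.

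Antibody peaks were listed in all 5 windows, with 4 at Ccnd3, 3 at Mxd4, 2 each at Cdkn1b and Rbl2 and 1 at Ccng2. Biotin peaks were listed in 3 windows, with 3 at Ccnd3 and 1 each at Cdkn1b and Mxd4. An overlap of at least 1 bp with a biotin peak was found for 4 of the 12 antibody peaks, where 13.6% of the whole antibody list did. Of the 5 biotin peaks, 4 overlapped an antibody peak, where 47.2% of the whole biotin list did. Since the windows were chosen from both lists, nothing is read from these shares. All 8 peaks of the 4 pairs, and 0 of the other 9 member peaks, appear in the list of common peaks that the authors deposited under the antibody input. All 682 intervals of that list are identical to peaks of the antibody or biotin list, so it is not separate evidence for the pairs.

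**Figure D1:**
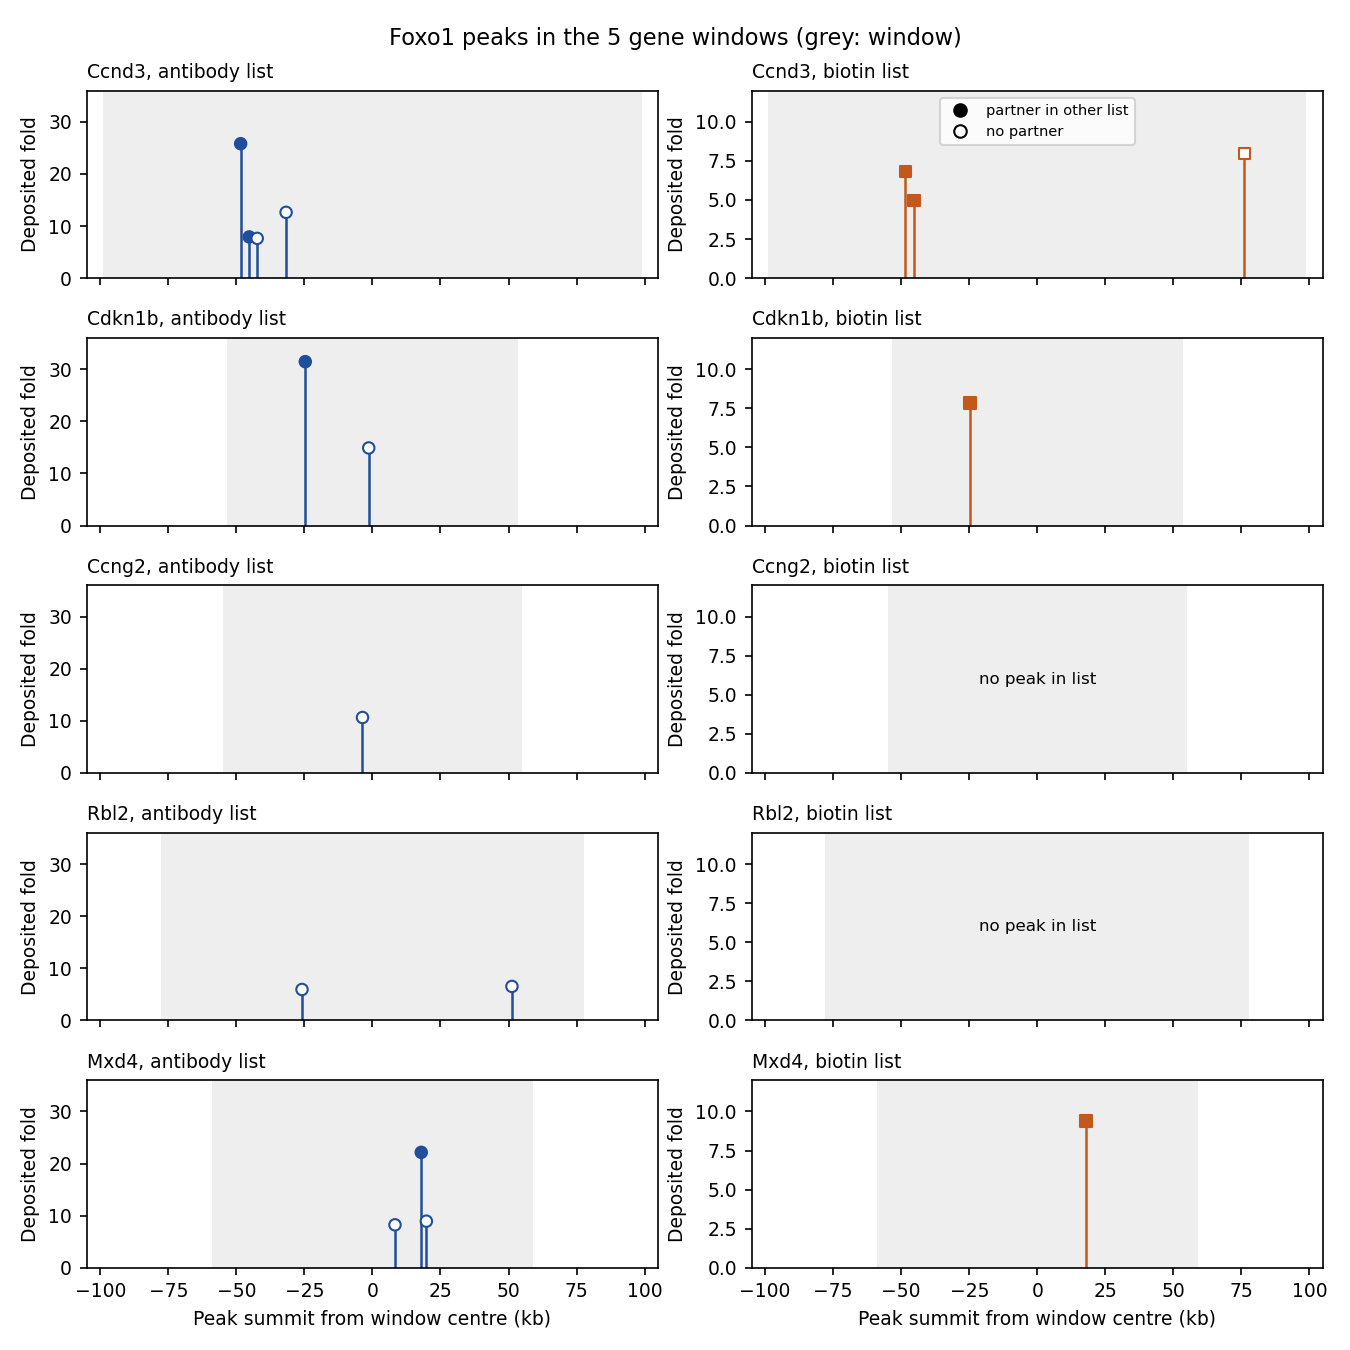
Each row is a gene window (grey), with antibody peaks on the left and biotin peaks on the right. The x axis is the distance of the summit from the window centre in kb and the y axis the deposited fold on a linear scale that differs between the columns, filled symbols have a partner in the other list, and Ccng2 and Rbl2 have no biotin peak.

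The values given per peak are the authors' own. The fold is a linear ratio with no stated reference, so it ranks peaks within a list and its level is not compared between lists. The whole antibody list had a median fold of 9.43 (range 3.01 to 57.6), and the whole biotin list one of 5.61 (range 2.03 to 48.3). The 12 antibody members had a median of 9.85 and ran from 5.93 to 31.4. Of these, 6 lay above the list's median and 4 above its upper quartile of 13.5. The 5 biotin members had a median of 7.85 and ran from 4.98 to 9.42, and 4 lay above the list's median.

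**Figure D2:**
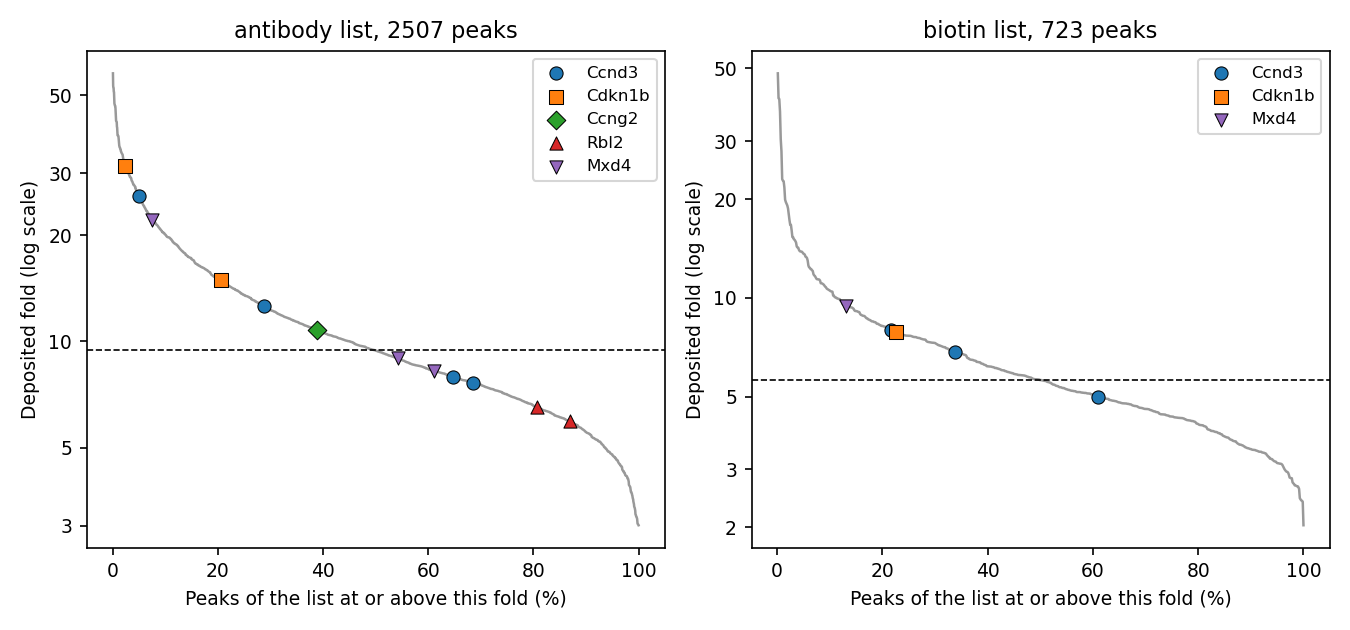
Grey lines show every peak of the antibody list (left) and the biotin list (right) ordered by deposited fold, with the share of the list at or above that fold on the x axis (%) and the fold on a log y axis; dashed lines mark the list medians of 9.43 and 5.61. Coloured symbols are the 12 antibody and 5 biotin member peaks, from Cdkn1b at the top of the antibody members to Rbl2 at the bottom.

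Ccnd3, the gene that drives entry into the cycle, had the most member peaks, but also the widest window (197 kb, against 106 to 155 kb). Per 100 kb, Mxd4 held more antibody peaks (2.56) than Ccnd3 (2.03), and Ccnd3 held the most biotin peaks (1.52). The strongest antibody peak of Ccnd3 (chromosome 17, 47641985 to 47642095, summit 47642080) had a fold of 25.8 and ranked 124 in the list. Following it along the chromosome were peaks with folds of 7.91 (47645158 to 47645257), 7.64 (47648143 to 47648238) and 12.6 (47658766 to 47658792). The strongest peak thus stood at one end of a cluster whose other members ranked 719 to 1718. Successive summits were 3.147, 2.937 and 10.607 kb apart, and all 4 lay within 16.691 kb. A peak with 3 or more other antibody summits within 20 kb is infrequent in the list (31 peaks, 1.24%), and these 4 peaks are among the 31. They form a single cluster and enter that group together. Since the windows were chosen for their peaks, nothing is read from this share. Only the first 2 of the 4 antibody peaks had a biotin partner.

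The biotin peaks at Ccnd3 followed the same order at the pair of sites. The biotin peak at the first site (47641987 to 47642047) had a fold of 6.82 and ranked 244, and that at the second (47645000 to 47645170) had a fold of 4.98 and ranked 441. A further biotin peak at 47766502 to 47766552 had the highest biotin fold of the window, 7.95 (rank 156). It lay 107.709 kb from the nearest antibody peak, toward the other end of the window, and was the only biotin member without a partner. The genes next to Ccnd3 in the RefSeq order are Taf8 and AI661453 on the lower side and Bysl and Gm20517 on the upper side, and to which of these genes a peak belongs was not analysed here.

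Cdkn1b, the p27Kip1 gene, had the antibody peak with the highest fold of the 12. This peak (chromosome 6, 134848315 to 134848334) had a fold of 31.4, ranked 58 and stood in the top 2.31% of the list. The biotin peak that overlaps it (134848319 to 134848402) ranked 163 with a fold of 7.85. Its p-value was listed as 0, as for 145 of the 723 biotin peaks. A second antibody peak 23.320 kb further on (134871637 to 134871652) had a fold of 14.9 (rank 518), and the nearest biotin peak was 23.234 kb from it. Both Cdkn1b antibody peaks were narrow, 20 and 16 bp wide, beside a median of 90 bp in the list, and 140 of the 2507 antibody peaks (5.58%) were at most 20 bp wide. The other 10 antibody members were 27 to 132 bp wide. The highest fold of the antibody list, 57.6, also belonged to a narrow peak (chromosome 3, 96361724 to 96361742). Another narrow peak (chromosome 2, 131088215 to 131088227) had a fold of 11.2. Whether fold depends on peak width was not tested, so the Cdkn1b ranks are not read as stronger binding than at the other genes.

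Below the lower edge of the Cdkn1b window lay a shared pair with higher folds. Its antibody peak (134780134 to 134780228), 39.833 kb outside the window, had a fold of 35.5 and ranked 34, and the biotin peak that overlaps it (134780156 to 134780205) ranked 28 with a fold of 14.2. A biotin peak with a fold of 5.89 (134961498 to 134961538) lay 35.524 kb beyond the upper edge and had no partner. Next to Cdkn1b in the RefSeq order are Gpr19 and Crebl2 on the lower side and Apold1 and Ddx47 on the upper side. To which of these genes the outer pair belongs was not analysed here.

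Mxd4, the repressive MAX partner, had 3 antibody peaks within 11.532 kb. The middle peak (chromosome 5, 34539351 to 34539467) had a fold of 22.2 and ranked 188. It was flanked by peaks with folds of 8.25 (34529726 to 34529831, rank 1533) and 8.95 (34541288 to 34541344, rank 1358), whose summits were 9.651 and 1.881 kb from its own. The middle peak alone had a biotin partner (34539342 to 34539426), whose fold of 9.42 was the highest of the 5 biotin members and ranked 94. The p-value was listed as 0 for the middle and the third peak, as for 406 of the 2507 antibody peaks. Peaks with 2 or more other antibody summits within 20 kb make up 4.87% of the list, and the 7 antibody peaks of Ccnd3 and Mxd4 belong to this group. Nothing is read from this share either, since the windows were chosen for their peaks. The other 5 antibody members had no other antibody summit within 20 kb. Next to Mxd4 in the RefSeq order are Haus3 and Poln on the lower side and Zfyve28 and Cfap99 on the upper side. To which of these genes the Mxd4 window's peaks belong was not analysed here.

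At Ccng2, the growth arrest cyclin, the window held 1 antibody peak (chromosome 5, 93696571 to 93696610) and 0 biotin peaks. The antibody peak had a fold of 10.8 (rank 974), above the list's median, but its p-value of 2.69e-12 was the highest of the 12 members. Peaks with a p-value at or above that make up 7.58% of the antibody list, whose highest p-value is 7.49e-12. Fold and p-value thus place this peak differently in the list. Just outside the lower edge, by 10.474 kb, lay an antibody peak (93635501 to 93635587) with a fold of 20.8 and a rank of 226. A biotin peak (93635749 to 93635837) with a fold of 10.9 and a rank of 65 lay next to it. A gap of 161 bp separated these peaks, so they did not count as shared, and whether they mark the same site was not tested. Pramel33 and Pramel34 follow Ccng2 on the upper side, and 2010109A12Rik and Ccni, the gene of cyclin I, precede it on the lower side.

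Rbl2, the p130 gene, had the antibody peaks with the lowest folds of the 12. These peaks (chromosome 8, 93594524 to 93594655 and 93671740 to 93671787) had folds of 5.93 and 6.52 and ranked 2182 and 2021, so 87.0% and 80.6% of the list had an equal or higher fold. They were 77.140 kb apart. Their p-values were 1.76e-13 and 1.19e-12. The nearest biotin peak was 4286.967 kb from the second of them, and the nearest antibody peak outside the window was 2322.023 kb from its edge. Chd9 and Tox3 precede Rbl2, and Aktip and Rpgrip1l follow it.

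Within the 4 pairs, the extent of agreement in position varied. At the first Ccnd3 site the biotin peak lay wholly inside the antibody peak, with an overlap of 61 bp and summits 59 bp apart. The Mxd4 peaks overlapped by 76 bp (89.4% of the shorter peak), with summits 38 bp apart. The Cdkn1b peaks overlapped by 16 bp, 80.0% of the 20 bp antibody peak, with summits 63 bp apart. At the second Ccnd3 site the overlap was 13 bp (13.0% of the shorter peak) and the summits were 96 bp apart. Overlap in base pairs was therefore smallest at the second Ccnd3 site, which fails a stricter definition of 50% of the shorter peak. The biotin summit lay at the lower coordinate at both Ccnd3 sites and at Mxd4, and at the higher one at Cdkn1b. Over all 341 shared pairs the median distance between summits was 20 bp, and over the 4 member pairs it was 61 bp.

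**Figure D3:**
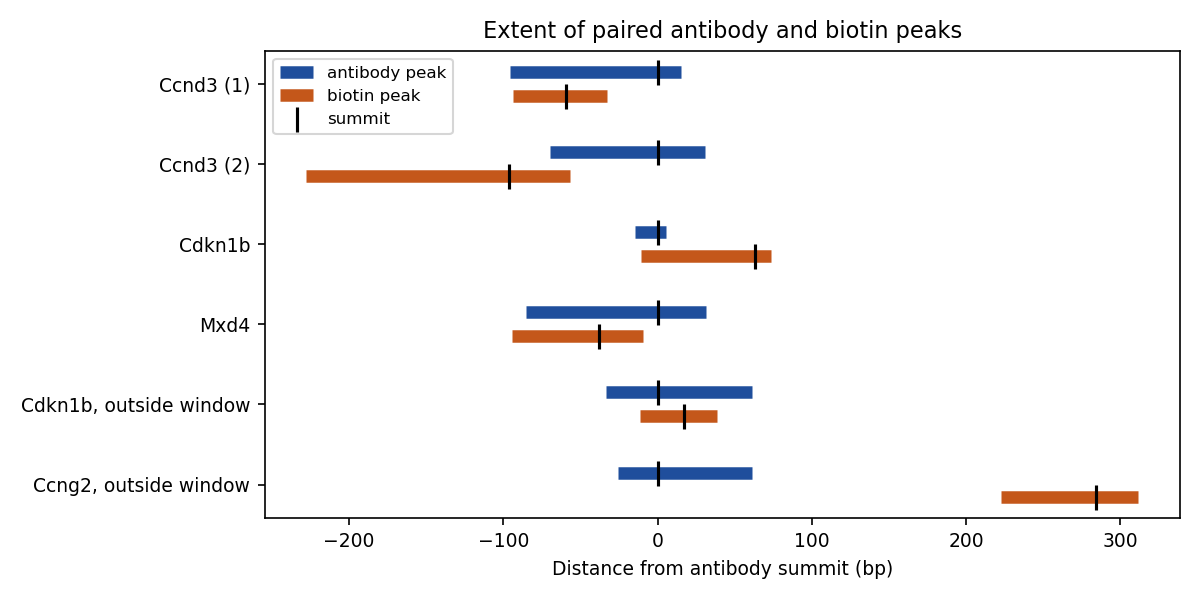
Bars show the extent of antibody (blue) and biotin (orange) peaks relative to the antibody summit on the x axis (bp), with black ticks at the summits. The upper 4 rows are the shared pairs in the windows, with summits 38 to 96 bp apart, and the lower rows are the nearest peaks below the windows of Cdkn1b, which overlap, and Ccng2, which are 161 bp apart.

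Folds of the member pairs were ranked among the 341 shared pairs, separately for each list. Cdkn1b ranked 47 by antibody fold and 120 by biotin fold. The first Ccnd3 site ranked 89 and 171, and Mxd4 ranked 122 and 76. The second Ccnd3 site ranked 311 and 244. By antibody fold the order was therefore Cdkn1b, the first Ccnd3 site, Mxd4 and the second Ccnd3 site, and by biotin fold Mxd4 came first, followed by the other 3 in the same order. With 1 library per list, these orders have no replicate check.

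**Figure D4:**
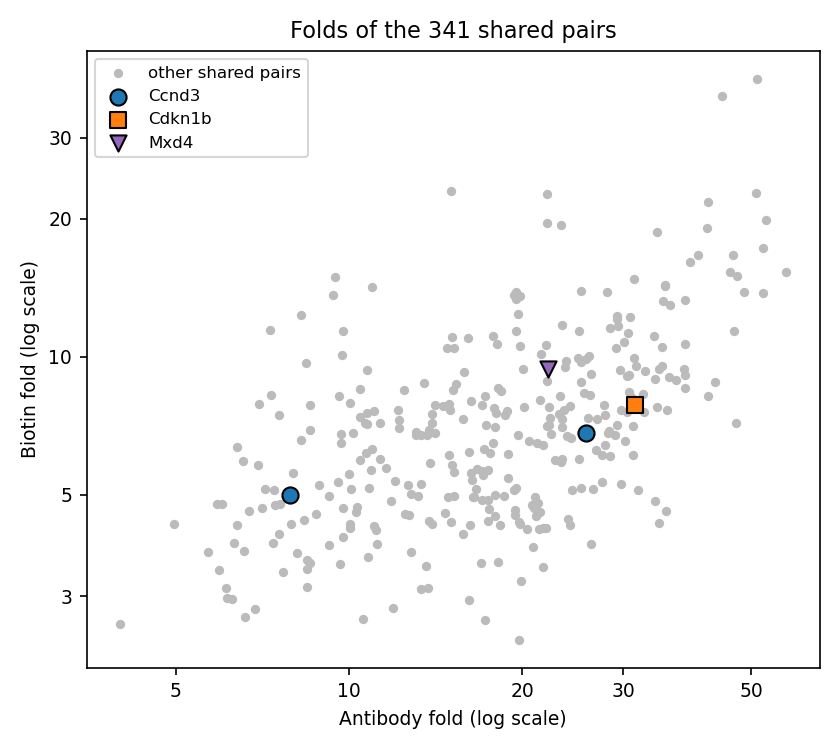
Each point is a shared pair, with its antibody fold on the x axis and its biotin fold on the y axis, both as deposited and on log scales. The 4 member pairs (coloured) lie inside the cloud of the 341 pairs, the second Ccnd3 site (7.91 and 4.98) at its lower left and Cdkn1b (31.4 and 7.85) farthest to the right of the 4.

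Measured from the window edge on the 5′ side of the gene (the lower edge for Ccnd3, Cdkn1b, Ccng2 and Rbl2, the upper edge for Mxd4, whose RefSeq strand is minus), each of the 5 windows held 1 antibody summit between 50 and 52 kb from that edge. The distances were 50.080 kb at Ccnd3, 51.649 kb at Cdkn1b, 50.586 kb at Ccng2, 51.624 kb at Rbl2 and 50.215 kb at Mxd4. These 5 peaks had folds of 25.8, 14.9, 10.8, 5.93 and 8.25. Among the other 7 antibody summits, 0 lay in that range from this edge, and 0 of the 12 lay in it from the opposite edge. Of the 5 biotin summits, 1 did, that at the first Ccnd3 site, at 50.021 kb. How the windows were drawn is not given with them. If each was drawn as the gene with a flank of 50 kb on each side, these 5 summits would lie near gene starts, but this was not tested, and the values are given here as distances to window edges. The range was chosen after the distances were seen.

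The antibody list holds 1.01 peaks per Mb over the span of its peaks. The nearest antibody peaks outside the Ccnd3 window lay 702.838 and 760.240 kb from its edges, with folds of 4.69 and 11.0. Those outside the Mxd4 window lay 490.599 and 283.643 kb away, with folds of 14.8 and 6.97. The Ccnd3 and Mxd4 clusters are each separated from the next antibody peak by more than the width of their window. This also held on both sides of the Rbl2 window, which had its nearest antibody peaks 2322.023 and 2924.372 kb from its edges. At Cdkn1b and Ccng2 it held on the upper side only, where the nearest lay 388.276 and 7174.247 kb away. On the lower side, the nearest lay 39.833 kb from the Cdkn1b window and 10.474 kb from the Ccng2 window.

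The promoters of these genes were searched for forkhead-type motifs. Promoters of 300 bases (250 before and 50 after each gene start) came from RefSeq on build GRCm38.p6. All 5 genes matched, with 2 starts for Ccnd3 and 1 for each of the others. Both strands were searched for GTAAACA, the high-affinity FoxO element, for NTAAACA, which contains it, and for CAAAACA, an insulin response element, a string that neither of the others can match. Counted by start, GTAAACA was found at 1 of the 6 member starts, the first of Ccnd3, against 3.65% of all 32851 starts in the table. NTAAACA was found at 2 of the 6, the first of Ccnd3 and that of Cdkn1b, against 13.4% of all starts, and CAAAACA at 1 of the 6, that of Ccng2, against 6.28%. With only 6 starts, no difference from all starts, or between the members, is read from these counts. The 250 bases before the start of the 3 genes with a match are shown 5′ to 3′ on the gene's strand, with the match in capitals, because the matches differ in letters, strand and distance to the start. Ccnd3 is the first of its starts (chr17:47504801-47505050, plus strand), Cdkn1b lies at chr6:134920151-134920400 (plus strand) and Ccng2 at chr5:93267323-93267572 (plus strand), all on GRCm38.p6.
Ccnd3: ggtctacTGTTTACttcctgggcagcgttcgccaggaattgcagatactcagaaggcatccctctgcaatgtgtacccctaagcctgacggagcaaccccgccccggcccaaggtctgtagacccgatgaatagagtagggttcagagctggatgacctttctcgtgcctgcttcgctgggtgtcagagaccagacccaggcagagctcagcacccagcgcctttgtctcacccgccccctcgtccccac
Cdkn1b: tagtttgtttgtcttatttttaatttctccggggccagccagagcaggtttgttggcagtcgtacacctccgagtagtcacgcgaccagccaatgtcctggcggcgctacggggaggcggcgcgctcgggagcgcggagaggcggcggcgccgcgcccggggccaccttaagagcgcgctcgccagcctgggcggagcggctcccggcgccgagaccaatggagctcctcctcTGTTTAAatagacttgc
Ccng2: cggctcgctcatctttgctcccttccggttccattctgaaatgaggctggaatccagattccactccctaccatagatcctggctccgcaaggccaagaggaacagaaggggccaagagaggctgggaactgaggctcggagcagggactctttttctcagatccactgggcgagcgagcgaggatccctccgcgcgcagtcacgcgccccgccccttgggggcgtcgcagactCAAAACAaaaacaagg
The Ccnd3 match is GTAAACA read on the minus strand and begins 243 bases before the start. That of Cdkn1b also reads on the minus strand and begins 17 bases before the start, and that of Ccng2 reads on the plus strand and begins 16 bases before it. No match to any of the 3 motifs was found in the promoters of Rbl2, Mxd4 or the second start of Ccnd3, which says only that these letters are absent there. Peak positions are on mm9 and were not converted, so whether a peak covers any of these promoters was not determined. A match is a description of the sequence and not a binding site.

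The G and C content of the member promoters ran from 50.7% at Rbl2 to 67.0% at the second start of Ccnd3, with a median of 61.5%, beside a median of 52.7% over all promoters (interquartile range 45.7 to 61.7%). It was above that range at 3 of the 6 starts, and at Rbl2 it was below the median of all promoters. The member promoters held 14 to 30 CpG dinucleotides each, with the fewest at Rbl2 and the most at Cdkn1b. Their median was 19.5, beside a median of 7 over all promoters, and lay inside the interquartile range of all promoters (3 to 20). The counts at Cdkn1b (30), the second start of Ccnd3 (28) and Ccng2 (21) lay above that range, and those at the other starts inside it.

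A wider list of 57 cell cycle and quiescence genes, which contains the 5 members, was searched in the same way, and 48 of these genes were in the promoter table. GTAAACA was found at 3 of the 48 (6.25%), namely Ccnd3, Mxi1, which encodes another MAX partner that opposes MYC, and Btg1, an antiproliferative gene of resting lymphocytes. Over all 27025 genes in the table the share was 4.05%. NTAAACA was found at 8 of the 48 (16.7%), beside 15.0% of all genes. These were Ccnd3, Cdkn1b, Mxi1 and Btg1 with Ccnb1, the mitotic cyclin B1, Tfdp2, a partner of E2F proteins, Mxd1, a relative of Mxd4, and Foxp1, a forkhead factor that keeps naive T cells at rest. CAAAACA was found at 2 of the 48 (4.17%), Ccng2 and Tfdp2, beside 7.20% of all genes. The list's shares therefore lay near those of all genes for each of the 3 motifs. Peaks at the other genes of the list were not analysed here, since no mm9 annotation was used.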

How the data were processed

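Peak lists of the antibody and the biotin ChIP were used, with the list of common peaks deposited under the antibody input. The biotin input was not analysed here. The reads went through CASAVA 1.4 and Bowtie 0.12.7 on mm9, per the submitters' processing notes. For the peak caller, a name or setting was not given in the sources used here. File names state a false discovery rate of 0.05. Per the file headers, each peak has a position, a width, a fold (a linear ratio made by the authors), a p-value and a summit. Peaks were called per library. Starts count from 0 in the files and were raised by 1. Windows, overlaps (at least 1 bp), ranks and motif matches were computed in Python 3.11.15 with pandas 2.3.3, after counting was tested on simulated lists. RefSeq tables on GRCm38.p6 gave promoters, strands and the 2 neighbouring protein-coding genes on each side. Named peaks are all peaks with a summit in a window and the nearest outside each edge. No test was run, because the members and gene lists were chosen with earlier results of these data known and each group is 1 library. Alternatives were any overlap with the window, wider and narrower windows, the top 50% by fold, other definitions of a partner, and other motifs.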

Additional observations from a re-analysis of the deposited data

How the results depend on the processing

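Assigning peaks by any overlap with a window changed none of the 6 peak results. With windows widened by 50 kb on each side, there were 14 antibody and 8 biotin peaks, with median folds of 11.7 and 7.90, and 4 windows held peaks of both lists, Ccng2 being added. With windows narrowed by 25 kb on each side, the biotin peak of Ccnd3 without a partner was lost and the biotin median was 7.34. In the 50% of each list with the highest fold, 6 antibody and 4 biotin peaks were left, with medians of 18.5 and 7.90, and Rbl2 had 0 peaks; fewer peaks enter by construction. The number of antibody peaks with a partner was 3 when 50% of the shorter peak had to be covered, and 4 with summits within 200 bp or a gap of at most 1000 bp. NTAAACA in place of GTAAACA gave 2 of the 5 genes, which follows from the looser motif. No paired analysis was possible because no group holds more than 1 library, which also means that leaving out replicates was not possible. Where a peak is missing from a list, as the biotin peaks at Ccng2 and Rbl2 are, the unknown depth does not allow a statement that binding is absent.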
